A study of Mus musculus with 6 samples.

Results

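The enzymes of glycolysis, of pyruvate entry into mitochondria, of the citric acid cycle and of gluconeogenesis were examined in the colon of Gm31629-/- and WT mice with experimental colitis. The members were 43 genes named by symbol, of 27546 genes in the table. They comprised 16 genes of glycolysis, 8 of pyruvate entry, 15 of the citric acid cycle and its cytosolic counterparts, and 4 of gluconeogenesis. The Gm31629-/- group was 3 mice homozygous for a deletion of the long noncoding RNA Gm31629, and the WT group was 3 littermates without the deletion. Mice of both groups were C57BL/6, 8 weeks old, drank 3% dextran sulfate sodium (DSS) for 7 days and were killed on day 8, so every library came from an injured colon and no mouse without DSS was measured. DSS is a sulfated polysaccharide that damages the colonic epithelium and causes an acute colitis. The mouse was a whole-animal knockout, and RNA was taken from colon tissue rather than from sorted cells. The comparison asked which transcripts differed in the colitic colon when the RNA was absent. No identifier in the table was matched to Gm31629 itself, so the genotype was not checked from the values.

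Glycolysis splits glucose into pyruvate in the cytosol, and lactate dehydrogenase turns pyruvate into lactate. The pyruvate dehydrogenase complex instead makes acetyl-CoA from pyruvate inside mitochondria, and a family of kinases switches that complex off. The citric acid cycle oxidizes acetyl-CoA and passes electrons to the respiratory chain. Colonocytes are known for burning butyrate from gut bacteria through this cycle, whereas smooth muscle, neurons and blood cells carry other isozymes of several steps.

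The table held 1 library per mouse, each taken here as a separate mouse although the methods speak of pooled RNA, with 18002700 to 18792775 mapped fragments. Values were FPKM, fragments scaled to exon length and to the mapped fragments of the library. Replicates of 1 group differed by far more than counting error, with a mean chi-square per gene of 34.3 to 49.9 between WT libraries and of 112 to 170 between Gm31629-/- libraries. The library of Gm31629-/- mouse 1 held transcripts of the Y-linked gene Eif2s3y at 15.4 FPKM and Xist at 0.00606 FPKM, while the other 5 libraries held Xist at 8.35 to 13.8 FPKM and Eif2s3y at 0. The labels give no sex, and the study's methods name male mice. Colon epithelial markers were abundant in every library, so the tissue label held. Their summed FPKM was 8094 to 9589.5 in Gm31629-/- mice and 12973 to 14171 in WT mice, with 7 of 15 markers lower. The lower markers were Cdx2, Cdx1, Krt8, Krt19, Elf3, Cldn7 and Vil1, with log2 fold changes from −3.13 for Cdx2 to −0.51 for Vil1, while Epcam and Cdh1 were among the 8 that did not pass the test (0.0054 and −0.042). Markers of the muscle wall were low in WT libraries: the 12 smooth muscle markers summed to 1342 to 2078 FPKM in Gm31629-/- mice and to 25.9 to 46.6 FPKM in WT mice, and all 12 were higher. Of 12 markers of enteric neurons and glia 11 were higher, as were 8 of 8 for neutrophils, 8 of 8 for macrophages, 6 of 6 for B and plasma cells, 4 of 6 for T cells, 6 of 7 for adipocytes and 3 of 5 for erythrocytes. Of 6 absorptive colonocyte markers 2 were lower. Of 10 skeletal muscle markers 2 passed the filter, Ckm and Acta1. Ckm was higher on low values, with a mean of 1.29 FPKM in Gm31629-/- mice. Acta1 was 104, 38.3 and 6.24 FPKM in Gm31629-/- mice 1 to 3 and 10.95, 13.1 and 8.00 FPKM in WT mice 1 to 3, and did not pass the test.

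**Figure D1:**
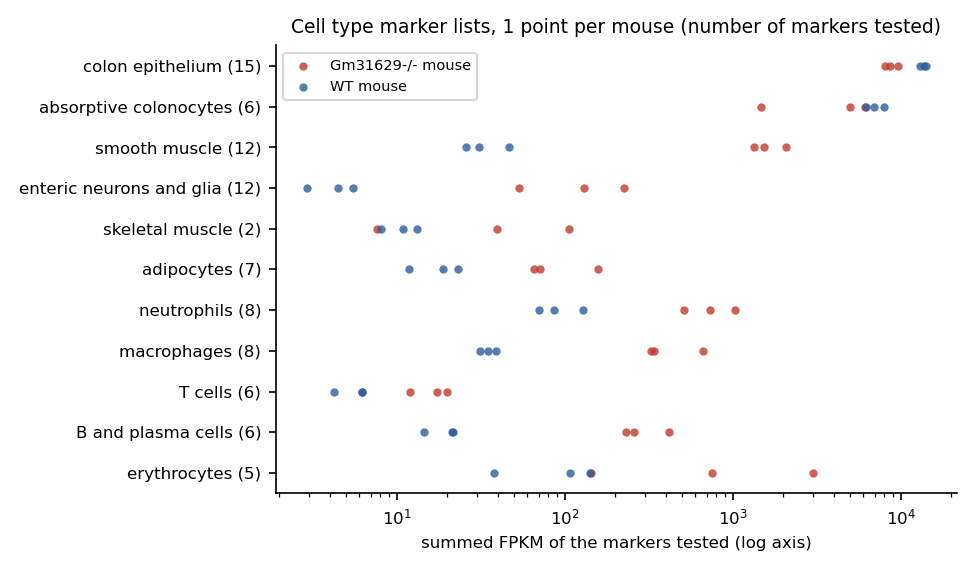
Summed FPKM of each cell type marker list (log axis) with 1 point per mouse, red for Gm31629-/- and blue for WT, and the number of markers tested in parentheses. Smooth muscle markers sum to 1342 to 2078 in Gm31629-/- mice and 25.9 to 46.6 in WT mice, while colon epithelial markers sum to 8094 to 9589.5 and 12973 to 14171.

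Of the 43 enzymes, 20 were lower in Gm31629-/- mice, 3 were higher and 20 did not pass the test. The citric acid cycle held most of the lower transcripts, with 11 of 15 members. All 3 higher transcripts, Pfkm, Eno3 and Ldhb, encode isozymes of glycolysis that are known from muscle, heart or brain. A gene was called higher or lower at a Benjamini-Hochberg adjusted p under 0.05 in limma on log2(FPKM + 1), over all 14657 genes whose FPKM averaged 0.5 or more, a filter that all 43 members passed. The share of members called lower was 46.5%, against 14.6% of all genes tested, and the share called higher was 6.98%, against 28.9%. Since members were mostly abundant, the 7242 genes that averaged 5 FPKM or more are a second background, of which 21.1% were lower and 19.4% were higher. A log2 fold change below −1 was reached by 7 of the lower members (16.3%, against 4.64% of all genes), and all 3 higher members exceeded 1 (6.98%, against 18.4%). Without regard to the test, all 3 Gm31629-/- mice lay below all 3 WT mice for 27 members (62.8%, against 21.5% of all genes) and above them for 4 (9.30%, against 36.3%), while the groups overlapped for 12. The median log2 fold change was −0.53 over the members, 0.15 over all genes tested and −0.081 over the genes that averaged 5 FPKM or more.

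The number of lower members depended on single libraries. It was 10 without WT mouse 3, 13 without WT mouse 1 and 22 without Gm31629-/- mouse 1. The 10 members lower in each of the 6 fits that left out 1 mouse were Pfkl, Idh2, Idh3b, Idh3g, Ogdh, Suclg1, Fh1, Mdh2, Fbp1 and Fbp2, and the 3 higher members were called in each of them. Gm31629-/- mouse 2 held the lowest value of its group for 27 of 43 members and for 16 of the 20 lower members. In bulk tissue, fewer cells of a type and less RNA per cell cannot be told apart. As given above, 7 of 15 epithelial markers were lower and all 12 smooth muscle markers were higher. Their part in these differences was not tested.

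**Figure D2:**
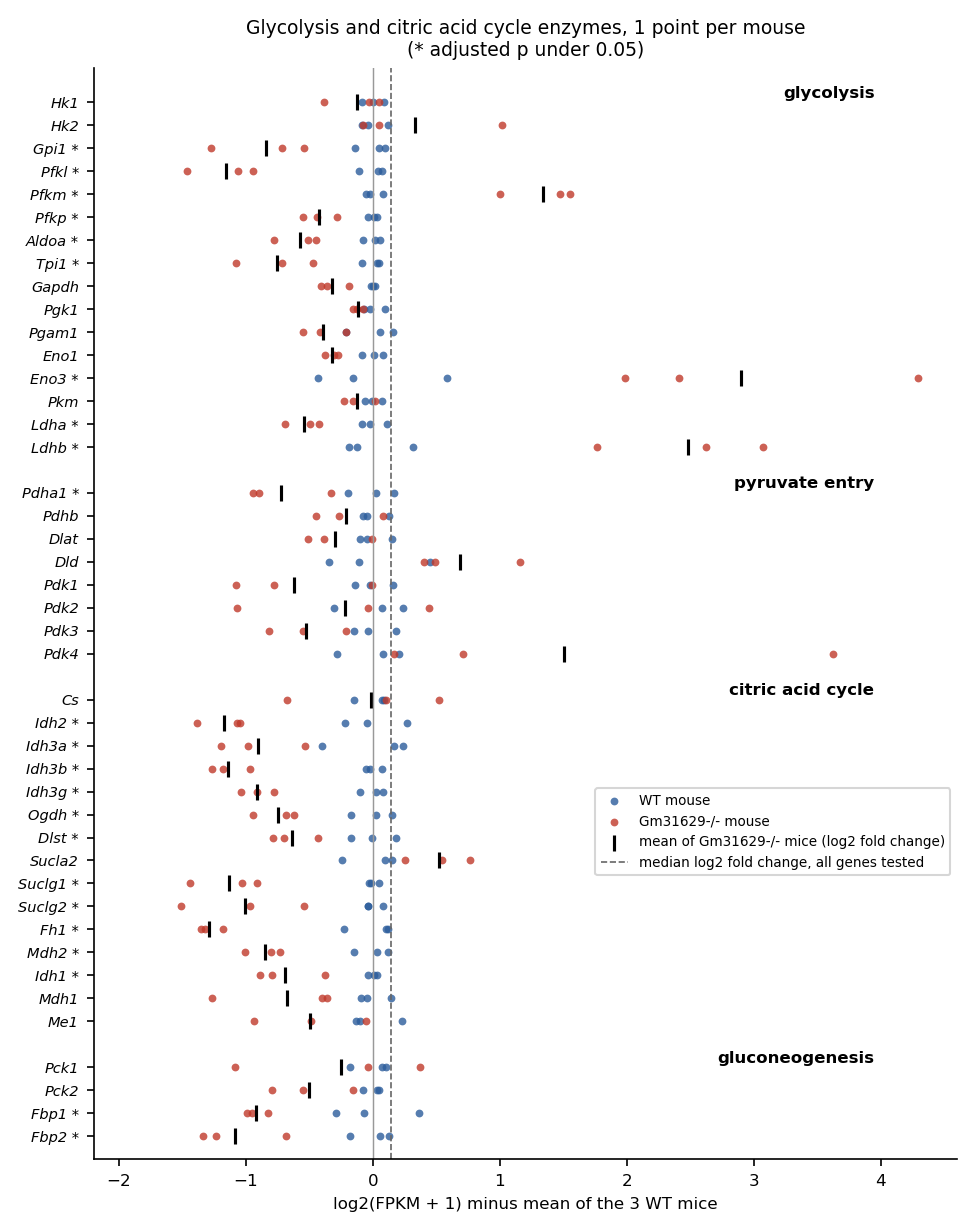
Each enzyme's log2(FPKM + 1) minus the mean of the 3 WT mice, 1 point per mouse, with a black bar at the log2 fold change, a dashed line at the median of all genes (0.15) and an asterisk at an adjusted p under 0.05. The bars of Pfkm, Eno3 and Ldhb lie above 1, as does that of Pdk4, which has no asterisk, and 14 of the 15 citric acid cycle members lie left of 0. When libraries were scaled to epithelial markers instead, 19 rather than 36 of the 43 members had a negative log2 fold change.

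In glycolysis, 6 of 16 transcripts were lower, 3 were higher and 7 did not pass the test. That was 37.5% lower and 18.75% higher, against 14.6% and 28.9% of all genes. The median log2 fold change was −0.32, and it was 0.29 when libraries were scaled to epithelial markers, where the median of all genes was 0.61. The 6 lower transcripts were Gpi1, Pfkl, Pfkp, Aldoa, Tpi1 and Ldha, which span the steps from glucose 6-phosphate to triose phosphate and the last step to lactate. The summed FPKM of the 16 genes was 2001, 1876 and 2277 in Gm31629-/- mice 1 to 3 and 2494, 2498 and 2689 in WT mice 1 to 3, so the knockout mean was 80.1% of WT.

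Ldha, the lactate dehydrogenase subunit of most glycolytic tissue, was the most abundant of the 43 transcripts. Its FPKM was 386, 336 and 405 in Gm31629-/- mice 1 to 3 and 513, 536 and 590 in WT mice 1 to 3. The groups did not overlap, and the log2 fold change was −0.54 ± 0.16 (SE, adjusted p = 0.0279), a call that was lost when any WT mouse was left out. Aldoa, the aldolase that cleaves fructose 1,6-bisphosphate, ranged from 247 to 312 FPKM in Gm31629-/- mice and from 403 to 442 FPKM in WT mice. Tpi1, which interconverts the 2 triose phosphates, ranged from 145 to 221 against 290 to 319 FPKM. Gpi1, the isomerase that follows hexokinase, ranged from 50.5 to 84.5 against 112 to 132 FPKM. These 3 transcripts had log2 fold changes of −0.58, −0.75 and −0.84.

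Transcripts of the later steps of glycolysis mostly did not pass the test. Gapdh, the dehydrogenase often used as a reference transcript, lay at 53.8 to 62.9 FPKM in Gm31629-/- mice and at 71.1 to 72.6 FPKM in WT mice, without overlap but with an adjusted p of 0.0814. Pgk1, Pgam1 and Eno1 also lay below WT in all 3 Gm31629-/- mice, by log2 fold changes of −0.12, −0.39 and −0.32, and did not pass the test. Pkm, which encodes the pyruvate kinases of most tissues, had a log2 fold change of −0.12 ± 0.14 (SE, adjusted p = 0.511), and the groups overlapped. Both hexokinases overlapped between the groups as well. Hk1 was 34.4 to 47.0 FPKM in Gm31629-/- mice and 42.6 to 48.1 FPKM in WT mice. Hk2, the inducible hexokinase, was 91.6, 179 and 83.4 FPKM in Gm31629-/- mice 1 to 3, of which mouse 2 stood above the 83.3 to 96.1 FPKM of WT mice. Gapdh, Pgk1, Pgam1, Eno1 and Ldha have processed copies of near-identical sequence in the genome, so their reads could have been shared with those copies and their levels are uncertain to that extent.

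Phosphofructokinase, which commits sugar to glycolysis, had members that moved in opposite directions. Pfkl, the liver-type subunit, was 29.2, 20.04 and 26.7 FPKM in Gm31629-/- mice 1 to 3 and 52.7, 58.6 and 60.03 FPKM in WT mice 1 to 3. It was lower in all 3 Gm31629-/- mice, at 44.3% of the WT mean, with a log2 fold change of −1.16 ± 0.17 (SE, adjusted p = 0.00237). Pfkm, the muscle-type subunit, was 8.31, 7.79 and 5.34 FPKM in Gm31629-/- mice 1 to 3 and 2.05, 2.35 and 2.12 FPKM in WT mice 1 to 3. It was higher in all 3, with a log2 fold change of 1.34 ± 0.19 (SE, adjusted p = 0.0020). Part of the exons of Pfkm, 10.2% of their length, is shared with the annotated transcript Gm26513. Pfkp, the platelet-type subunit, was 27.5, 24.6 and 22.7 against 32.8, 33.9 and 34.5 FPKM, which gave a log2 fold change of −0.42 ± 0.13 (SE, adjusted p = 0.0365). That call was kept in 1 of the 6 fits that left out a mouse and was lost on the TPM scale.

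The make-up of the phosphofructokinase pool therefore differed between the groups. Within a library, the share of each isozyme was taken as its FPKM over the summed FPKM of that step, a quantity that no scaling of libraries can move. Pfkl made up 44.9%, 38.2% and 48.8% of the phosphofructokinase FPKM in Gm31629-/- mice 1 to 3 and 60.2%, 61.8% and 62.1% in WT mice 1 to 3. Pfkm made up 12.8%, 14.9% and 9.74% against 2.34%, 2.48% and 2.20%. Pfkp made up 42.3%, 46.9% and 41.5% against 37.5%, 35.7% and 35.7%. The shares of Pfkm and Pfkp were above WT and that of Pfkl below WT in all 3 Gm31629-/- mice. With 3 mice per group an exact permutation test cannot give a p below 0.10, so shares are given as a description.

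Enolase shares differed in the same manner. Eno1, the enolase of most tissues, was 161, 169 and 173 FPKM in Gm31629-/- mice 1 to 3 and 197, 211 and 222 FPKM in WT mice 1 to 3. Eno3, the muscle enolase, was 60.8, 44.9 and 226 FPKM in Gm31629-/- mice 1 to 3 and 16.4, 7.60 and 9.42 FPKM in WT mice 1 to 3. The groups did not overlap, and mouse 3 stood far above the other two knockouts. The log2 fold change of Eno3 was 2.90 ± 0.59 (SE, adjusted p = 0.00776), and it was 2.20 without Gm31629-/- mouse 3. Eno3 made up 27.3%, 20.95% and 56.7% of the enolase FPKM in Gm31629-/- mice 1 to 3 and 7.69%, 3.49% and 4.07% in WT mice 1 to 3.

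Lactate dehydrogenase was almost wholly Ldha in both groups. Ldhb, the subunit that prevails in heart, was 26.1, 18.9 and 9.99 FPKM in Gm31629-/- mice 1 to 3 and 1.96, 1.84 and 3.02 FPKM in WT mice 1 to 3. The groups did not overlap, and the log2 fold change was 2.48 ± 0.33 (SE, adjusted p = 0.00168). Ldhb made up 6.35%, 5.32% and 2.41% of the lactate dehydrogenase FPKM in Gm31629-/- mice 1 to 3 and 0.381%, 0.342% and 0.509% in WT mice 1 to 3. Smooth muscle markers summed to 2078, 1544 and 1342 FPKM in Gm31629-/- mice 1 to 3 and to 25.9, 46.6 and 30.8 FPKM in WT mice 1 to 3. Muscle, heart and nerve are known to carry these isozymes, and the part of the marker differences in Pfkm, Eno3 and Ldhb was not tested. Among Gm31629-/- mice, mouse 3 had the lowest smooth muscle sum. Eno3 was highest in that mouse, while Pfkm and Ldhb were lowest.

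**Figure D3:**
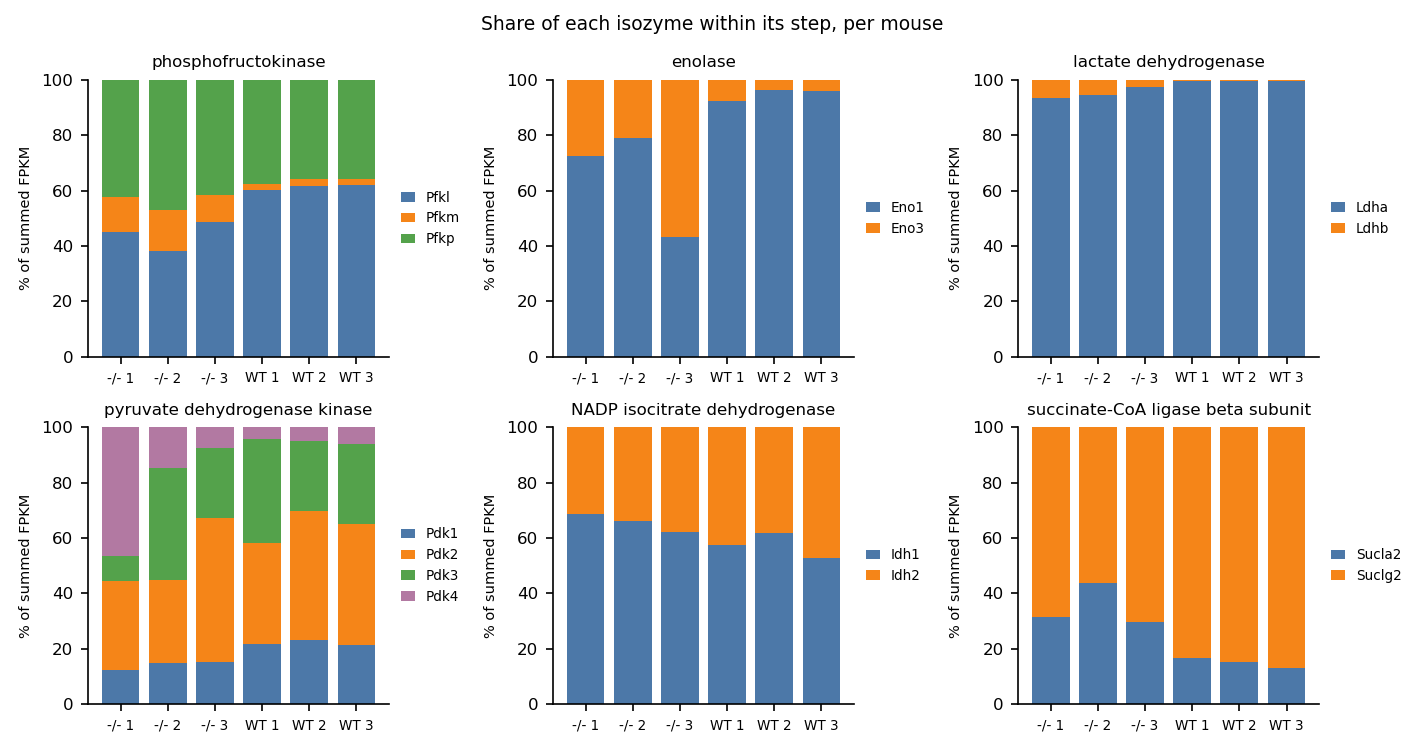
Percent of summed FPKM taken by each isozyme of 6 enzyme steps, 1 stacked bar per mouse, with Gm31629-/- mice 1 to 3 on the left and WT mice 1 to 3 on the right of each panel. Pfkm, Pfkp, Eno3, Ldhb, Pdk4, Idh1 and Sucla2 take a larger share in every Gm31629-/- mouse than in any WT mouse.

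The start regions of 4 of these genes are shown because Ldha and Fh1 were lower while Ldhb and Eno3 were higher, so that the pair of lactate dehydrogenase genes can be read side by side. Each line holds the 250 bases upstream of the annotated start, 5′ to 3′ on the gene's own strand, from RefSeq on GRCm38.p6, with motif matches in capitals. Ldha lies on the plus strand at chr7:46845554-46845803, Ldhb on the minus strand at chr6:142507958-142508207, Eno3 on the plus strand at chr11:70656926-70657175 and Fh1 on the minus strand at chr1:175625636-175625885.
Ldha: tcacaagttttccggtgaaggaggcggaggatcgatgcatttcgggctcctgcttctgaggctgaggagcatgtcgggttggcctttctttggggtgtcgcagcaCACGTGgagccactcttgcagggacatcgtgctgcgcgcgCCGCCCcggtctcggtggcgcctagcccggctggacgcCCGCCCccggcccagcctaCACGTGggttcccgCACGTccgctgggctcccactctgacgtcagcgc
Ldhb: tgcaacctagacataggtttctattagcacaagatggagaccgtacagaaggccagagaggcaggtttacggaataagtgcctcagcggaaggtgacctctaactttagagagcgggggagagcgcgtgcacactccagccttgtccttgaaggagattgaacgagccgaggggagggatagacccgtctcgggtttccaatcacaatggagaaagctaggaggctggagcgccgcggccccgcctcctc
Eno3: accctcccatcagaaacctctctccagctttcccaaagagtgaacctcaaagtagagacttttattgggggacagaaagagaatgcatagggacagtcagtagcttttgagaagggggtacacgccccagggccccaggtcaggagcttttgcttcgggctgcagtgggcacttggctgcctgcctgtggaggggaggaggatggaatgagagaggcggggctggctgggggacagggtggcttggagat
Fh1: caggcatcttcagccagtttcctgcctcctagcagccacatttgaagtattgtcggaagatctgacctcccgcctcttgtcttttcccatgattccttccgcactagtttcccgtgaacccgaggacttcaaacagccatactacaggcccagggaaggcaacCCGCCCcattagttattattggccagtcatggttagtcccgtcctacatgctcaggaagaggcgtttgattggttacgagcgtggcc
The capitals mark ACGTG, a form of the core recognized by hypoxia-inducible factors, and GGGCGG, the GC box, each sought on both strands. The other form of that core, GCGTG, was not sought or counted. It can be read on either strand in the windows of Ldhb, Eno3 and Fh1, so the counts do not separate genes with and without such a core. The E-box CACGTG holds ACGTG on both strands, so 1 such site counts as 2 matches. Ldha held 5 matches to ACGTG and 2 to GGGCGG, Fh1 held 1 GC box, and neither sequence occurred in the windows of Ldhb and Eno3. Over all members, 22 of 61 windows of 42 genes held ACGTG (36.1%), against 16.6% of 32851 windows of all genes, and 31 held GGGCGG (50.8%, against 32.7%). A gene with several windows counts more than once: the windows with ACGTG belonged to 15 genes and those with GGGCGG to 27. No background of equally abundant genes was taken. The nuclear respiratory factor 1 core GCGCATGC occurred in 3 member windows (4.92%, against 2.26%). The estrogen-related receptor site TCAAGGTCA occurred in none (0.387% of all windows), nor did the CArG box of serum response factor (1.47%). No promoter was given for Idh3a.

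Pyruvate entry had 1 called transcript. Of 8 members, 1 was lower, none was higher and 7 did not pass the test (limma, adjusted p under 0.05), so that 12.5% were lower against 14.6% of all genes. The median log2 fold change was −0.26, and it was 0.32 when libraries were scaled to epithelial markers. Pdha1, the catalytic alpha subunit of pyruvate dehydrogenase, was the most abundant member of the group. Its FPKM was 24.4, 16.2 and 15.6 in Gm31629-/- mice 1 to 3 and 31.5, 34.8 and 26.9 in WT mice 1 to 3. All 3 Gm31629-/- mice lay below the WT mice, for a log2 fold change of −0.72 ± 0.20 (SE, adjusted p = 0.0259), a call kept in 1 of the 6 fits that left out a mouse. The exons of Pdha1 overlap those of Map3k15 on the other strand over 16.1% of their length, and the counting was not stated to use strand. Pdhb and Dlat, the beta subunit and the acetyltransferase core, had log2 fold changes of −0.21 and −0.30. Dld, the dehydrogenase that this complex shares with the 2-oxoglutarate complex, was 19.7 to 34.0 FPKM in Gm31629-/- mice and 11.3 to 20.4 FPKM in WT mice, for a log2 fold change of 0.68 ± 0.28 (SE, adjusted p = 0.0833).

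None of the 4 pyruvate dehydrogenase kinases passed the test. Pdk4, the kinase that fasting and fatty acids induce in muscle, was 42.6, 4.78 and 2.96 FPKM in Gm31629-/- mice 1 to 3 and 1.89, 2.72 and 3.08 FPKM in WT mice 1 to 3. Mouse 1 alone stood apart and mouse 3 lay within the WT range, so that the log2 fold change of 1.503 ± 0.82 (SE, adjusted p = 0.174) became 0.44 without mouse 1. Pdk1, a hypoxia-responsive kinase, was 11.0, 4.72 and 6.04 FPKM against 10, 12.5 and 10.9 FPKM. Pdk2 was 29.4, 9.66 and 20.8 FPKM against 17.04, 25.3 and 22.5 FPKM, and Pdk3 was 8.23, 13.0 and 10.1 FPKM against 17.5, 13.7 and 14.9 FPKM. Among the 4 kinases, Pdk1 took 12.1%, 14.7% and 15.1% of the FPKM in Gm31629-/- mice 1 to 3 and 21.5%, 23.1% and 21.3% in WT mice 1 to 3. The share of Pdk4 was 46.7%, 14.9% and 7.42% against 4.08%, 5.02% and 5.99%. The shares of Pdk1 and Pdk4 did not overlap between the groups, and those of Pdk2 and Pdk3 did.

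The citric acid cycle was the group with the largest share of lower transcripts. Of 15 members, 11 were lower (73.3%), none was higher and 4 did not pass the test. Of all genes, 14.6% were lower and 28.9% were higher. The median log2 fold change was −0.85, or −0.99 relative to the median of all genes. Relative to the median of genes that averaged 5 FPKM or more it was −0.77. When libraries were scaled to epithelial markers, 4 were lower, 1 was higher and the median was −0.24. Summed FPKM was 687, 449 and 593 in Gm31629-/- mice 1 to 3 and 941, 850 and 972 in WT mice 1 to 3, so the groups did not overlap and the knockout mean was 62.6% of WT. Of the 12 mitochondrial members, 10 were lower, with a median of −0.91. Of the 3 cytosolic counterparts, Idh1 was lower.

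The entry enzyme of the cycle was 1 of the 4 members that did not pass the test, with Sucla2, Mdh1 and Me1. Cs, citrate synthase, was the most abundant member of this group and is widely used as a measure of mitochondrial content. Its FPKM was 189.8, 82.4 and 142 in Gm31629-/- mice 1 to 3 and 139, 119 and 140.1 in WT mice 1 to 3. Mouse 1 lay above all WT mice and mouse 2 below them, and the log2 fold change was −0.016 ± 0.29 (SE, adjusted p = 0.969).

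The isocitrate dehydrogenases were lower throughout. Idh3b, a regulatory subunit of the NAD-dependent enzyme, was 32.9, 26.5 and 28.3 FPKM in Gm31629-/- mice 1 to 3 and 64.5, 62.9 and 68.8 FPKM in WT mice 1 to 3. It stood at 44.7% of the WT mean without overlap, with a log2 fold change of −1.14 ± 0.14 (SE, adjusted p = 0.00114). Idh3g, the other regulatory subunit, and Idh3a, the catalytic subunit, had log2 fold changes of −0.91 and −0.90. Idh2, the mitochondrial NADP-dependent enzyme, was 20.8, 16.2 and 20.4 FPKM in Gm31629-/- mice 1 to 3 and 42.5, 37.7 and 53.3 FPKM in WT mice 1 to 3. The groups did not overlap, and the log2 fold change was −1.17 ± 0.18 (SE, adjusted p = 0.00268). Idh1, the cytosolic NADP-dependent enzyme, was 45.3, 31.4 and 33.7 FPKM against 57.6, 60.5 and 59.4 FPKM, with a log2 fold change of −0.69 ± 0.17 (SE, adjusted p = 0.0151). Idh1 made up 68.6%, 66.0% and 62.2% of the NADP-dependent pair in Gm31629-/- mice 1 to 3 and 57.5%, 61.6% and 52.7% in WT mice 1 to 3, so the share did not overlap although mouse 3 and WT mouse 2 were close.

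Both core subunits of the 2-oxoglutarate dehydrogenase complex were lower. Ogdh was 64.0 to 80.3 FPKM in Gm31629-/- mice and 109.9 to 137 FPKM in WT mice, and Dlst was 16.2 to 21.05 against 25.5 to 32.7 FPKM. Their log2 fold changes were −0.75 and −0.64.

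Succinate-CoA ligase, the step that yields a nucleoside triphosphate, pairs an alpha subunit with 1 of 2 beta subunits, and the share of these 2 differed between the groups. Suclg1, the alpha subunit, was 29.5, 20.2 and 27.1 FPKM in Gm31629-/- mice 1 to 3 and 55.3, 55.8 and 58.5 FPKM in WT mice 1 to 3. It was lower without overlap, with a log2 fold change of −1.13 ± 0.17 (SE, adjusted p = 0.00245). Suclg2, the beta subunit of the GTP-forming enzyme, was 32.7, 16.3 and 24.1 FPKM against 46.8, 50.9 and 46.9 FPKM. Its log2 fold change was −1.01 ± 0.24 (SE, adjusted p = 0.0143), and the call was lost in 1 of the 6 fits that left out a mouse. Sucla2, the beta subunit of the ATP-forming enzyme, was 14.9, 12.7 and 10.2 FPKM in Gm31629-/- mice 1 to 3 and 9.39, 9.01 and 6.92 FPKM in WT mice 1 to 3. All 3 Gm31629-/- mice lay above the WT mice, but the log2 fold change of 0.52 ± 0.19 (SE) had an adjusted p of 0.0606. Sucla2 took 31.4%, 43.8% and 29.7% of the beta subunit FPKM in Gm31629-/- mice 1 to 3 and 16.7%, 15.04% and 12.9% in WT mice 1 to 3.

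Fumarase had the most negative log2 fold change of the 43 members on the log2(FPKM + 1) scale, where that of the scarce Fbp1 is compressed. With a pseudocount of 0.1 the log2 fold change was −1.34 for Fh1 and −2.50 for Fbp1. Fh1, which hydrates fumarate to malate, was 14.2, 12.5 and 12.8 FPKM in Gm31629-/- mice 1 to 3 and 36.1, 28.5 and 36.4 FPKM in WT mice 1 to 3. The knockout mean was 39.0% of WT, the groups did not overlap, and the log2 fold change was −1.29 ± 0.15 (SE, adjusted p = 0.00102). Mdh2, the mitochondrial malate dehydrogenase that closes the cycle, was 58.3 to 70.8 FPKM in Gm31629-/- mice and 106 to 128 FPKM in WT mice, for a log2 fold change of −0.85. Mdh1 and Me1, cytosolic malate dehydrogenase and malic enzyme, had log2 fold changes of −0.68 and −0.49 and did not pass the test. Under the scaling to epithelial markers, Idh2, Idh3b, Suclg1 and Fh1 were still called lower, together with Pfkl and Fbp1, and Sucla2 was called higher.

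**Figure D4:**
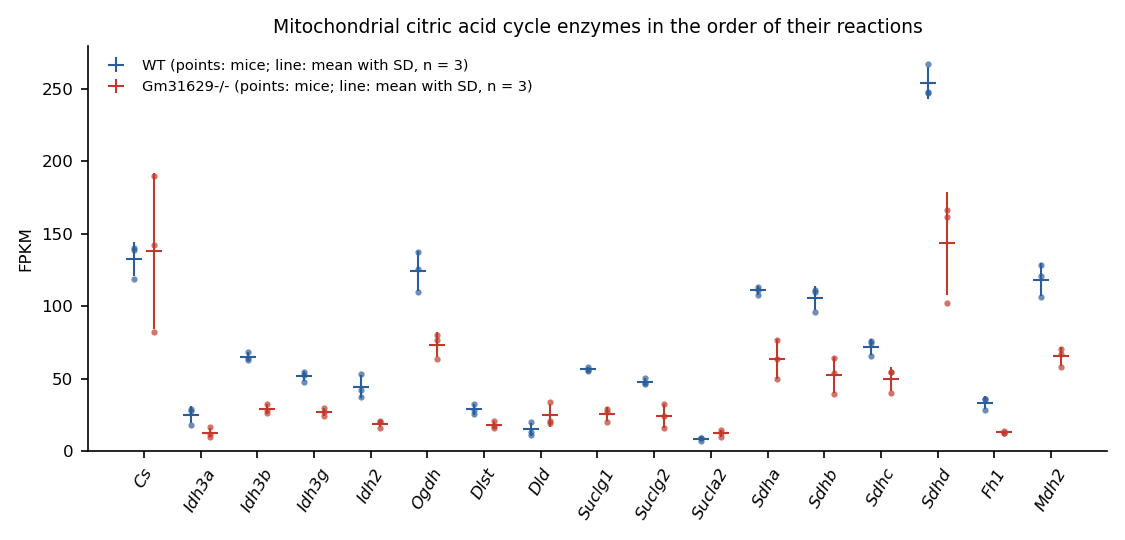
FPKM of mitochondrial enzymes of the cycle in the order of their reactions, with points for mice and lines for the mean and SD of 3 mice per group, red for Gm31629-/- and blue for WT. Sdha, Sdhb, Sdhc and Sdhd are companion genes and Dld belongs to pyruvate entry. Cs, Dld and Sucla2 are the 3 transcripts shown that were not called lower.

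Gluconeogenesis, the reverse route that only some tissues complete, had 2 of 4 members lower and none higher, against 14.6% and 28.9% of all genes. The median log2 fold change was −0.71. Fbp2, the muscle-type fructose bisphosphatase, was the most abundant member of the group. Its FPKM was 66.5, 41.8 and 44.8 in Gm31629-/- mice 1 to 3 and 94.7, 111 and 117 in WT mice 1 to 3. The groups did not overlap, and the log2 fold change was −1.09 ± 0.20 (SE, adjusted p = 0.00588). Fbp1, the liver-type enzyme, was scarcely measured: its values rested on 2, 6 and 3 fragments in Gm31629-/- mice 1 to 3 and on 23, 31 and 55 fragments in WT mice 1 to 3. It was called lower (adjusted p = 0.00967), and Fbp2 held 98.5% or more of the step in every library. Pck1, the cytosolic PEP carboxykinase, was 28.1, 13.1 and 37.6 FPKM against 25.4, 31.1 and 30.5 FPKM, and the groups overlapped. Pck2, its mitochondrial counterpart, lay below WT in all 3 Gm31629-/- mice with a log2 fold change of −0.50 ± 0.19 (SE, adjusted p = 0.0673).

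Across the 10 steps with more than 1 measured isozyme, the share of at least 1 isozyme did not overlap between the groups in 7. All shares overlapped in 3, which were hexokinase, malate dehydrogenase and PEP carboxykinase. By level rather than share, 21.5% of all genes lay below WT and 36.3% above it without overlap. The count of 7 is therefore not read as particular to these steps. For fructose bisphosphatase the difference rested on the few fragments of Fbp1. Levels of isozymes depend on the exon length by which fragments were divided. That length, summed over all annotated exons, was 1.01 to 3.46 times the longest protein-coding transcript of the member, so a share differs from a share of molecules, although the factor is the same in every library.

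The neighbouring genes of carbohydrate metabolism were read from a companion list of 68 genes, of which 64 passed the filter. Of these, 26 were lower, 10 were higher and 28 did not pass the test, beside 14.6% lower and 28.9% higher of all genes. Among other genes tied to the citric acid cycle, Aco1, the cytosolic aconitase, and the 4 succinate dehydrogenase subunits were lower in 5 of 5 cases, with log2 fold changes of −1.24 to −0.53. In the pentose phosphate pathway, which makes NADPH and ribose from glucose 6-phosphate, 6 of 7 genes were lower and Rpe was higher. Tkt, transketolase, was 13.2, 18.9 and 13.97 FPKM in Gm31629-/- mice 1 to 3 and 73.7, 67.3 and 79.5 FPKM in WT mice 1 to 3. The knockout mean was 20.9% of WT without overlap, with a log2 fold change of −2.2 ± 0.17 (SE, adjusted p = 0.00029). Taldo1, transaldolase, had a log2 fold change of −1.26.

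Of 10 other isozymes tested, of glycolysis and of the citric acid cycle, 3 were higher and 3 were lower, against 28.9% higher and 14.6% lower of all genes. Hkdc1, a hexokinase domain protein, was 3.81, 0.211 and 0.223 FPKM in Gm31629-/- mice 1 to 3 and 16.1, 23.8 and 26.6 FPKM in WT mice 1 to 3. It was lower without overlap, with a log2 fold change of −3.56. Eno2, the enolase of neurons, was 5.80, 8.74 and 4.07 FPKM in Gm31629-/- mice 1 to 3 and 0.0804, 0.0590 and 0.192 FPKM in WT mice 1 to 3. Its log2 fold change was 2.65, beside summed neuron and glia markers of 53.5 to 227 FPKM in Gm31629-/- mice and 2.92 to 5.52 FPKM in WT mice, whose part was not tested. Hk3, the hexokinase of myeloid cells, had a log2 fold change of 1.56. Aldoc, the brain-type aldolase, was lower (−0.96), and Pgam2, the muscle-type phosphoglycerate mutase, did not pass the test (−0.64).

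Among 10 transporters tested, 2 were higher and 3 were lower, beside the same background of 28.9% and 14.6%. Slc2a4, the insulin-responsive glucose transporter of muscle and fat, was 14.3, 7.15 and 5.76 FPKM in Gm31629-/- mice 1 to 3 and 0.0933, 0.144 and 0.168 FPKM in WT mice 1 to 3, a log2 fold change of 3.06. Slc2a3, the glucose transporter of neurons and leukocytes, had a log2 fold change of 1.52. Of the 5 enzymes that set fructose 2,6-bisphosphate, an activator of phosphofructokinase, Pfkfb3 was higher at 9.08, 40.6 and 8.65 FPKM against 3.35, 2.39 and 2.15 FPKM. Of 5 pyruvate dehydrogenase partners 1 was higher, and of 2 glucose 6-phosphatase genes tested 1 was lower. Of 10 anaplerosis and shuttle genes 6 were lower, among them Slc25a10, the mitochondrial dicarboxylate carrier (−1.59), and Gpd1, glycerol 3-phosphate dehydrogenase (−1.37).

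Of 10 regulators, 2 were higher and 2 were lower, beside 28.9% and 14.6% of all genes. Hif1a, the oxygen-regulated subunit of hypoxia-inducible factor 1, was 35.6, 59.97 and 39.4 FPKM in Gm31629-/- mice 1 to 3 and 14.3, 8.85 and 4.64 FPKM in WT mice 1 to 3. The groups did not overlap, and the log2 fold change was 2.25 ± 0.37 (SE, adjusted p = 0.0036). Ppara, a nuclear receptor for fatty acids, was 1.26, 0.367 and 0.596 FPKM in Gm31629-/- mice 1 to 3 and 4.90, 9.57 and 7.82 FPKM in WT mice 1 to 3, a log2 fold change of −2.27. Protein amounts and enzyme activities were not measured in these libraries.

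The scale of the libraries moved the medians of the enzymes together with that of all genes. The median of all genes was 0.15 as deposited, 0.017 after scaling by median ratios and 0.61 after scaling to epithelial markers. Relative to that median, the citric acid cycle lay at −0.99, −1.03 and −0.85 under these 3 scales, and glycolysis at −0.47, −0.51 and −0.32. Under each of the 3 scales, 36 of 43 members lay below the median of all genes. Such scaling shifts all genes of a library nearly alike, so positions relative to that median could hardly change and are no check on the result. Of all called genes, 66.5% were higher as deposited, 55.4% after scaling by median ratios and 93.7% after scaling to epithelial markers, while 48.0% were higher among genes that averaged 5 FPKM or more. Those more abundant genes had a median log2 fold change of −0.081. Relative to it the citric acid cycle lay at −0.77, and glycolysis, with 15 members past that filter, at −0.24.

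**Figure D5:**
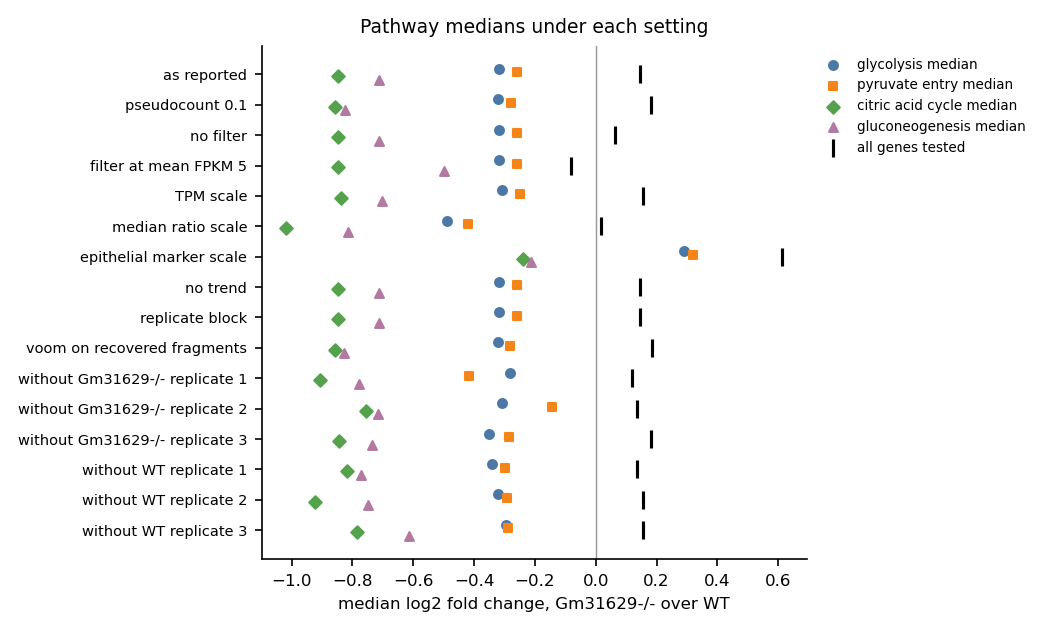
Median log2 fold change of the 4 pathway groups and of all genes tested (black bars) under each setting, Gm31629-/- over WT. The citric acid cycle lies between −0.92 and −0.76 except after scaling by median ratios (−1.02) and to epithelial markers (−0.24), where glycolysis and pyruvate entry lie above 0 but below the median of all genes.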

How the data were processed

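The authors deposited FPKM values for 27546 genes, with 1 column per mouse. The submitters' processing notes name HISAT2 2.1.0, HTSeq 0.6.0 and GRCm38, without settings or strand. The study's methods describe total RNAs pooled from 3 mice of each genotype, but each mouse has its own column and was treated here as a separate replicate. If RNAs had been pooled first, the p-values would measure technical spread only. Symbols, locations and exon lengths came from GENCODE M21 and matched 27488 identifiers. Aldoa had a second identifier below the filter. Fragments behind each FPKM were recovered from the value of 1 fragment, and of the values at or below 20 fragments, 96.3% to 97.2% per library were whole to a tolerance of 0.1. Each SE given with a log2 fold change came from the limma fit and measures spread between libraries, not counting error alone.

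Genes averaging 0.5 FPKM or more were fitted on log2(FPKM + 1), a scale that understates changes of low genes, by lmFit and trended eBayes of limma 3.58.1 (R 4.3.3), with Benjamini-Hochberg adjustment over all 14657 genes. Groups came from the labels. The study used DEGseq, which needs counts. The fit was tested on simulated data. Members and lists were chosen with earlier results of these data known. Values of every mouse are given for members past a log2 fold change of 1 in size, for the most abundant member of each group, for steps whose isozyme shares did not overlap, and for up to 12 companion genes. 1 gene of the companion list is not reported here. Alternatives were another pseudocount, filter or scale, no trend, a replicate block, voom on recovered fragments and leaving out each mouse.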

Additional observations from a re-analysis of the deposited data

How the results depend on the processing

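Scaling to epithelial markers moved the most values: 6 members were lower and 9 higher in place of 20 and 3, and the medians became 0.29 for glycolysis, 0.32 for pyruvate entry, −0.24 for the citric acid cycle and −0.21 for gluconeogenesis. Under it 17 members changed sign, to Aldoa 0.037, Cs 0.59, Dlat 0.27, Eno1 0.29, Gapdh 0.29, Hk1 0.48, Ldha 0.074, Me1 0.049, Pck1 0.34, Pck2 0.055, Pdhb 0.38, Pdk2 0.36, Pdk3 0.043, Pfkp 0.17, Pgam1 0.22, Pgk1 0.49 and Pkm 0.49. The cause was not tested. Scaling by median ratios gave 27 lower and 3 higher members and a glycolysis median of −0.49. Leaving out 1 mouse gave 10 to 22 lower members and 3 to 4 higher members. Over the same fits the log2 fold change ranged from −0.28 to 0.31 for Cs, −0.21 to 0.011 for Hk1, −0.015 to 0.53 for Hk2, −0.56 to 0.17 for Pck1 and −0.55 to 0.20 for Pdk2. Isozyme shares, as percentage points of Gm31629-/- minus WT, ranged from −9.58 to 0.388 for Hk1, −0.388 to 9.58 for Hk2, −3.04 to 8.11 for Pck1, −8.11 to 3.04 for Pck2 and −13.4 to 2.28 for Pdk3. The other pseudocount, the fit without a trend and voom on recovered fragments each gave 20 lower and 3 higher members, TPM and no filter each gave 19 and 3, and a filter at a mean FPKM of 5 gave 19 and 2 of 41 tested.

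The labels share replicate numbers between the groups, but same-numbered mice did not deviate together (correlations 0.036, −0.11 and 0.014). A fit with the replicate number as a block gave 17 lower and 4 higher members: it lost Aldoa, Ldha and Pfkp and gained Dld. Depth limited Fbp1, whose Gm31629-/- values rested on 2 to 6 fragments.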
